A study of Mus musculus with 20 samples.

Results

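The reactive astrocyte genes described here were a set of 10 named genes, *Gfap*, *Vim*, *Lcn2*, *Serpina3n*, *Steap4*, *Timp1*, *Cp*, *S1pr3*, *Ptx3* and *Cd44*, chosen by name out of 22180 genes on the array. All 10 had a probe set that carried their symbol alone, and *Vim* had a further one, which gave 11 probe sets in all. No member passed the test in any of the 7 comparisons made, in each of which at most 0.108% of all genes did. The values that stood farthest apart were those of *Timp1*, which was higher on all 5 arrays of control mice given dexamethasone than on all 5 of control mice given saline, while the Cx30GRko groups overlapped. Of all genes, 1.24% separated between these 2 control groups, and the difference of *Timp1* missed the threshold (limma, adjusted p = 0.731).

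The samples were spinal cords of C57BL/6J mice 6 to 10 weeks old, 1 biotin-labelled Affymetrix whole-transcript array per sample and 5 arrays per group. The 4 groups were Cx30GRko mice given dexamethasone (Dex), a synthetic agonist of the glucocorticoid receptor, Cx30GRko mice given saline, control mice given Dex and control mice given saline. Dex was injected intraperitoneally at 4 mg/kg, and tissue was taken 4 h after the injection in every group. Cx30GRko stands for a Cre-mediated deletion of the glucocorticoid receptor gene in cells that express connexin 30, an astrocyte gap junction protein. The arrays titled Tg were read as this genotype and those titled wt as controls. The Cre line and the alleles of the control mice are not stated in the labels. The cord holds many cells outside the reach of this Cre that carry the receptor as well. In bulk tissue, fewer cells of a type and less RNA per cell cannot be told apart.

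Astrocytes that meet injury, inflammation or degeneration change shape and transcript levels, a state called reactive. It is known in mice for more of the intermediate filament proteins GFAP and vimentin and for secreted acute-phase proteins, and signals of the interleukin 6 family through STAT3 are among its drivers. Glucocorticoids dampen inflammation in many tissues, and they also raise some acute-phase genes directly through the receptor.

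The promoters of 4 members are shown, *Timp1* because it was the member whose arrays separated and *Serpina3n*, *Cp* and *Steap4* because they held a searched motif. Each sequence is the 250 bases before the start of the gene, 5′ to 3′ on the gene's strand, from RefSeq with the build GRCm38.p6. *Timp1* lies at chrX:20869916-20870165 on the plus strand, *Serpina3n* at chr12:104406458-104406707 on the plus strand, *Cp* at chr3:19956804-19957053 on the plus strand, with a second start for which no match was found, and *Steap4* at chr5:7960222-7960471 on the plus strand. Capitals mark AGAACA, the half-site of the glucocorticoid receptor, in *Serpina3n* and *Cp*, and TTCNNNGAA, the letters of the STAT element, in *Steap4*.
Timp1: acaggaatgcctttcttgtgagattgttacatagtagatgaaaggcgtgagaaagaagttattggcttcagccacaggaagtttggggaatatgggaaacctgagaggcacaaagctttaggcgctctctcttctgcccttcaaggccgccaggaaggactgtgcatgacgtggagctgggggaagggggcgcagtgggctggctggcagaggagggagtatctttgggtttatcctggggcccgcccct
Serpina3n: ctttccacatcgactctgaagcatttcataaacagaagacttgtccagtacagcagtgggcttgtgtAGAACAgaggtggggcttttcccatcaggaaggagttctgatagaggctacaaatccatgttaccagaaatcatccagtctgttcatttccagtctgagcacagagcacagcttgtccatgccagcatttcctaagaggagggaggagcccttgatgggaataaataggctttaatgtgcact
Cp: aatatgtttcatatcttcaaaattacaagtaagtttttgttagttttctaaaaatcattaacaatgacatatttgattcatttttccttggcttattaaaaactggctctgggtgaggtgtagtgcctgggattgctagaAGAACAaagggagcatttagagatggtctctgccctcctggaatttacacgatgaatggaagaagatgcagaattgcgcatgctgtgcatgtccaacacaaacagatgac
Steap4: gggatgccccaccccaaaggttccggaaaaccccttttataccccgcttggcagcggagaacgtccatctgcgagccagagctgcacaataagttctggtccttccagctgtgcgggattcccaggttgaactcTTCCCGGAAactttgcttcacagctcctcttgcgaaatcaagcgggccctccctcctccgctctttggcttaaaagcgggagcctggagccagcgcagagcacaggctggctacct
The search covered both strands, on which AGAACA also reads TGTTCT. Also searched was the AP-1 element, TGAGTCA, which reads TGACTCA on the other strand. No matches of different motifs overlapped in these windows. AGAACA began 183 bases before the start of *Serpina3n* and 110 bases before that of *Cp*, and TTCCCGGAA began 116 bases before that of *Steap4*. Among all 32851 promoters of this length, 16.1% held AGAACA, 7.02% held TTCNNNGAA and 4.46% held TGAGTCA. The other 7 members held none of the 3 motifs in this window. A match is a run of letters and not a site shown to be bound.

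The deposited values fell into 2 array sets, of which the first held replicates 1 to 3 (12 arrays) and the second replicates 4 and 5 (8 arrays). The labels do not mention these sets. For every probe set the mean of one set equalled that of the other to within 4.54e-09 on the log2 scale. Group differences were therefore also computed within each set. Over all genes the median residual SD was 0.212 in the first set and 0.373 in the second. Cx30GRko Dex replicates 4 and 5 stood apart, with SDs over probe sets of 1.945 and 1.813, against 1.66 to 1.71 on the other 18 arrays. Their astrocyte marker scores, the mean deviation of 17 marker genes from their own means, were 0.74 and 0.52, against -0.31 to 0.12 on the other 18. Their scores of 11 neuron markers, at 0.80 and 0.41, and of 9 oligodendrocyte markers, at 0.93 and 0.30, also lay above those of the other 18, which reached 0.12 and 0.25. The means of 17 of 17 astrocyte, 9 of 9 oligodendrocyte, 10 of 11 neuron and 2 of 14 neutrophil and blood monocyte markers lay over the median of all gene means, 4.68. Signals of different probes are not on one scale, so these counts do not show which cells the cord held. *Nr3c1*, the gene of the receptor, had a lowest, median and highest log2 signal of 6.08, 6.29 and 7.79 in Cx30GRko Dex cords and 6.01, 6.07 and 6.49 in Cx30GRko saline cords. The same values were 6.11, 6.24 and 6.30 in control Dex cords and 5.40, 6.43 and 6.58 in control saline cords. *Nr3c1* thus overlapped between genotypes, and whether its probes lie in the deleted part was not given, so it does not check the labels.

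Across the whole table, limma called 2 genes at an adjusted p under 0.05 for Dex in Cx30GRko mice (0.00902% of genes), 3 for Dex in control mice (0.0135%) and 24 for the mean Dex effect over both genotypes (0.108%). It called 0% for the remaining 4 comparisons, which were Cx30GRko against control under saline, under Dex and over both treatments, and the interaction of genotype and Dex. None of the 10 members was among these genes in any comparison. At an unadjusted p under 0.05 in limma, 2 members passed for Dex in Cx30GRko mice (8.5% of all genes, 1885), 2 for Dex in control mice (4.5%, 998) and 1 for the mean Dex effect (7.47%, 1656). For Cx30GRko against control, 1 member passed under saline (4.44%, 985), 2 under Dex (9.78%, 2169) and 0 over both treatments (9.11%, 2021). For the interaction 3 members passed (4.91%, 1090). A gene's arrays separated without overlap in 1.53% of genes for Dex in Cx30GRko mice, 1.24% for Dex in control mice, 0.938% for genotype under saline and 1.28% for genotype under Dex. *Timp1* was the 1 member of 10 to do so, in control mice given Dex against saline and in Cx30GRko against control under Dex.

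**Figure D1:**
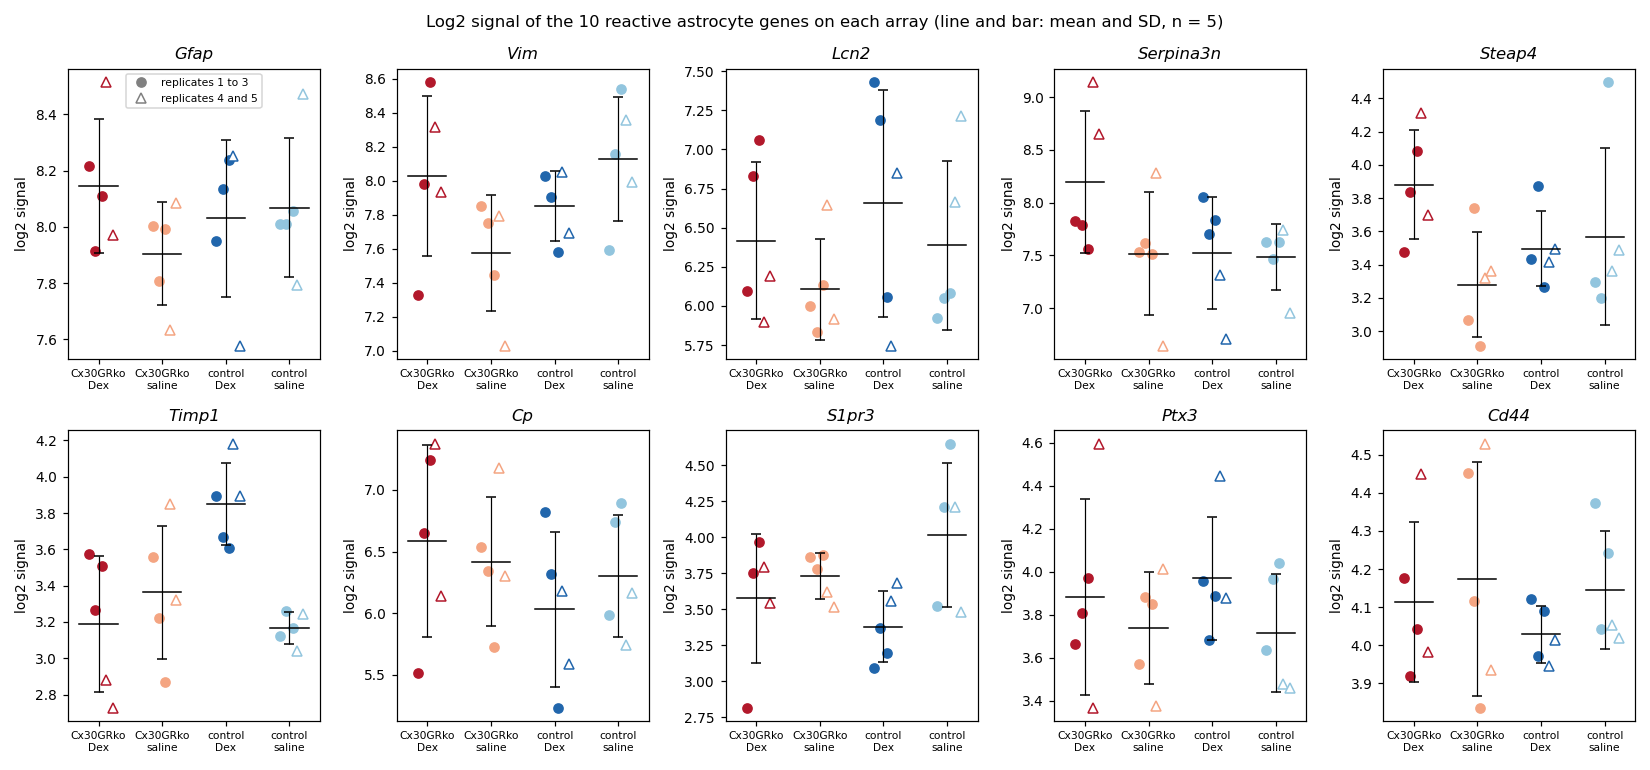
Log2 signal of each of the 10 genes on each array (vertical axis) in the 4 groups (horizontal axis), with filled circles for replicates 1 to 3, open triangles for replicates 4 and 5, and a line and bar for the mean and SD of 5 arrays. *Timp1* in control Dex cords, between 3.61 and 4.18, lies above all control saline cords, between 3.04 and 3.26, and the other 9 genes overlap in each of the 4 comparisons between groups.

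*Timp1* encodes a secreted inhibitor of matrix metalloproteinases, the enzymes that cut extracellular matrix. On the log2 scale its signal read 3.57, 3.27, 3.51, 2.88 and 2.73 in Cx30GRko Dex cords (replicates 1 to 5, as in all lists here), against 3.56, 3.22, 2.87, 3.85 and 3.32 in Cx30GRko saline cords. In controls it was 3.90, 3.67, 3.61, 4.18 and 3.90 in Dex cords, against 3.13, 3.26, 3.17, 3.04 and 3.24 in saline cords. The control groups did not overlap, and the control Dex cords also lay above all Cx30GRko Dex cords, while the Cx30GRko groups overlapped widely. The group means were 3.19 ± 0.38 and 3.36 ± 0.37 in Cx30GRko Dex and saline cords and 3.85 ± 0.23 and 3.17 ± 0.089 in control Dex and saline cords (SD, n = 5 each).

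The difference of *Timp1* between Dex and saline in control mice was 0.68 ± 0.19 (log2, SE), a 1.61-fold higher signal with a 95% interval of 1.22 to 2.11, and missed the threshold over all genes in limma (adjusted p = 0.731). It was 0.54 in the first set and 0.90 in the second set. In Cx30GRko mice the Dex difference was -0.17 ± 0.19, with 0.23 in the first set and -0.78 in the second set. The direction in controls was thus shared by both array sets, and the direction in Cx30GRko mice was not. The difference of Cx30GRko against control under Dex was -0.66 ± 0.19 (limma, adjusted p = 0.502). The interaction, which tests the gap between both Dex differences, was -0.85 ± 0.27 (limma, adjusted p = 0.924), with -0.31 in the first set and -1.68 in the second set. Without Cx30GRko Dex replicates 4 and 5, the genotype difference under Dex was -0.31 and the interaction -0.51, so these values rested in large part on 2 arrays. The Dex difference in controls takes no value from either of them, but its SE and p-value use the spread over all 20 arrays. Without those 2 arrays it stayed at 0.68, with an adjusted p of 0.206 (limma). *Timp1* lay below the median of all gene means, with a mean of 3.39 over 20 arrays. The table holds no detection call, so how far such a signal stands above background is unknown.

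*Gfap* encodes the glial fibrillary acidic protein, the intermediate filament by which reactive astrocytes are most often stained. The log2 signals were 8.22, 7.92, 8.11, 8.52 and 7.97 in Cx30GRko Dex cords, against 8.002, 7.81, 7.99, 7.63 and 8.09 in Cx30GRko saline cords. Control cords had 7.95, 8.13, 8.24, 8.25 and 7.58 after Dex, against 8.01, 8.01, 8.05, 7.79 and 8.47 after saline. All 4 groups overlapped, and the arrays of the second set held both the highest and the lowest values. The Dex difference was 0.24 ± 0.17 in Cx30GRko mice (limma, adjusted p = 0.664) and -0.04 ± 0.17 in control mice (limma, adjusted p = 1). The Cx30GRko difference was 0.03 after a further quantile normalization and 0.14 without Cx30GRko Dex replicate 4. The 95% interval of the mean Dex effect was 0.904-fold to 1.27-fold, the narrowest but one of the 10 members. Within the first set, where its residual SD was 0.12, the mean Dex effect was 0.11 ± 0.084, and over all arrays after a further quantile normalization it was -0.02.

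*Vim* encodes vimentin, an intermediate filament of reactive astrocytes that fibroblasts, endothelial cells and Schwann cells also make. The arrays gave log2 signals of 7.33, 7.98, 8.58, 8.32 and 7.93 in Cx30GRko Dex cords, against 7.85, 7.75, 7.44, 7.79 and 7.03 in Cx30GRko saline cords. The control values were 8.03, 7.90, 7.58, 8.05 and 7.69 after Dex, against 7.60, 8.16, 8.54, 8.36 and 7.99 after saline. The groups overlapped, with the Cx30GRko saline cords low and the control saline cords high. Under saline the genotype difference was -0.56 ± 0.22 (limma, adjusted p = 0.966), with -0.42 in the first set and -0.76 in the second set. The Dex difference was 0.45 ± 0.22 in Cx30GRko mice and -0.28 ± 0.22 in control mice, and the interaction was 0.73 ± 0.32 (limma, adjusted p = 0.924). These directions were the same in both array sets. The second probe set of *Vim*, with a mean of 4.71, had a genotype difference of 0.16 ± 0.25 under saline and an interaction of -0.05 ± 0.36. It did not follow the first over the 20 arrays (r = -0.31), so the pattern of *Vim* belongs to 1 of its 2 probe sets.

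Of the secreted acute-phase proteins, *Lcn2* encodes lipocalin 2, which binds the iron carriers of bacteria. Its log2 signal was 6.09, 6.83, 7.06, 5.90 and 6.19 in Cx30GRko Dex cords, against 6.00, 5.84, 6.13, 6.65 and 5.91 in Cx30GRko saline cords. In control cords it was 7.43, 7.19, 6.06, 5.75 and 6.85 after Dex, against 5.92, 6.05, 6.09, 6.66 and 7.21 after saline. In the first set 2 of 3 Dex arrays per genotype lay above all saline arrays, and in the second set saline arrays were among the highest. The mean Dex effect was 0.29 ± 0.23 over all arrays (limma, adjusted p = 0.759). It was 0.77 ± 0.22 in the first set (limma, adjusted p = 0.32) and -0.44 in the second set, which ran opposite. Both genotypes showed this split, with Dex differences of 0.67 and -0.23 in Cx30GRko mice and 0.87 and -0.64 in control mice, the first set before the second.

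*Serpina3n* encodes a secreted inhibitor of serine proteases. On the log2 scale its signal read 7.83, 7.79, 7.56, 9.15 and 8.65 in Cx30GRko Dex cords, against 7.53, 7.62, 7.51, 8.28 and 6.64 in Cx30GRko saline cords. Control cords had 8.06, 7.70, 7.84, 7.31 and 6.70 after Dex, against 7.63, 7.47, 7.62, 7.74 and 6.96 after saline. The 2 highest values of all were those of Cx30GRko Dex replicates 4 and 5, the arrays that stood apart. The Dex difference in Cx30GRko mice was 0.68 ± 0.32 (limma, adjusted p = 0.579), with 0.17 in the first set and 1.44 in the second set, and 0.05 without those 2 arrays. Cx30GRko against control under Dex was 0.67 ± 0.32 (limma, adjusted p = 0.509), with -0.14 in the first set, 1.89 in the second set, and 0.05 without those 2 arrays. The 2 arrays thus supplied nearly all of both differences, and in the first set the genotype difference had the opposite sign. In that set, where the residual SD of *Serpina3n* was 0.127, the Dex difference was 0.17 ± 0.12 in Cx30GRko mice and 0.29 ± 0.12 in control mice, and the mean Dex effect 0.23 ± 0.087 (limma, adjusted p = 0.545).

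*Cp* encodes ceruloplasmin, a copper-carrying ferroxidase of which astrocytes make a membrane-anchored form. The log2 signals were 5.52, 6.65, 7.25, 7.38 and 6.14 in Cx30GRko Dex cords, against 6.54, 6.35, 5.72, 7.18 and 6.30 in Cx30GRko saline cords. The control values were 6.82, 6.32, 5.23, 6.18 and 5.59 after Dex, against 5.98, 6.74, 6.89, 5.74 and 6.17 after saline. Values within a group spread over more than any difference between groups, and the residual SD of 0.63 was the highest of the 10 members. The Dex difference was 0.17 ± 0.36 in Cx30GRko mice (limma, adjusted p = 0.908) and -0.27 ± 0.36 in control mice (limma, adjusted p = 1).

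*Ptx3* encodes pentraxin 3, a soluble pattern recognition protein. The arrays gave log2 signals of 3.67, 3.81, 3.97, 3.37 and 4.60 in Cx30GRko Dex cords, against 3.57, 3.88, 3.85, 3.38 and 4.01 in Cx30GRko saline cords. In control cords it was 3.96, 3.68, 3.89, 4.44 and 3.88 after Dex, against 3.64, 3.97, 4.04, 3.48 and 3.46 after saline. The groups overlapped, and both values over 4.1 were Dex arrays of the second set. The mean Dex effect was 0.20 ± 0.15 (limma, adjusted p = 0.748), with 0.0032 in the first set and 0.49 in the second set.

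*Steap4* encodes a metalloreductase that reduces iron and copper at membranes. Its log2 signal was 3.47, 3.84, 4.08, 4.31 and 3.70 in Cx30GRko Dex cords, against 3.06, 3.74, 2.91, 3.32 and 3.36 in Cx30GRko saline cords. Control cords had 3.43, 3.87, 3.27, 3.41 and 3.49 after Dex, against 3.29, 3.20, 4.50, 3.36 and 3.49 after saline. In Cx30GRko mice 5 of 5 Dex arrays lay above the saline mean of their array set, with 1 saline array inside the Dex range, and in controls 2 of 5 did. *Serpina3n* also had 5 of 5 in Cx30GRko mice, and the share of all genes with such counts was not computed. The Dex difference in Cx30GRko mice was 0.60 ± 0.23, a 1.52-fold higher signal with a 95% interval of 1.09 to 2.11 (limma, adjusted p = 0.572). It was 0.56 in the first set, 0.66 in the second set and 0.49 without Cx30GRko Dex replicates 4 and 5, and so of like size in each. In control mice it was -0.07 ± 0.23, and the interaction was 0.67 ± 0.32 (limma, adjusted p = 0.924). Without control saline replicate 3, the highest array of its group, they were 0.17 and 0.43. The signal of *Steap4* was dim, with a mean of 3.56.

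Of the cell surface receptors, *S1pr3* encodes a receptor for sphingosine 1-phosphate. On the log2 scale its signal read 2.82, 3.75, 3.97, 3.79 and 3.54 in Cx30GRko Dex cords, against 3.86, 3.78, 3.88, 3.62 and 3.51 in Cx30GRko saline cords. The control values were 3.09, 3.37, 3.20, 3.56 and 3.68 after Dex, against 3.52, 4.21, 4.65, 4.21 and 3.48 after saline. In controls 0 of 5 Dex arrays lay above the saline mean of their set, although the ranges overlapped. The same count of 0 of 5 in controls held for *Vim* and *Cd44*. The Dex difference in control mice was -0.63 ± 0.23, or 0.644-fold with a 95% interval of 0.464 to 0.895 (limma, adjusted p = 0.958), with -0.91 in the first set and -0.23 in the second set. In Cx30GRko mice it was -0.16 ± 0.23, and the mean Dex effect was -0.40 ± 0.16 (limma, adjusted p = 0.647). The interaction was 0.48 ± 0.32 (limma, adjusted p = 0.924), so the 2 Dex differences were not shown to differ.

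*Cd44* encodes the main receptor for hyaluronan. The log2 signals were 4.18, 3.92, 4.04, 4.45 and 3.98 in Cx30GRko Dex cords, against 4.45, 4.12, 3.84, 4.53 and 3.93 in Cx30GRko saline cords. In control cords it was 4.12, 3.97, 4.09, 3.94 and 4.01 after Dex, against 4.37, 4.04, 4.24, 4.05 and 4.02 after saline. The control Dex cords lay within 0.2 of each other, and all groups overlapped. The mean Dex effect was -0.09 ± 0.11 (limma, adjusted p = 0.853), and its 95% interval of 0.804-fold to 1.10-fold was the narrowest of the 10 members.

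**Figure D2:**
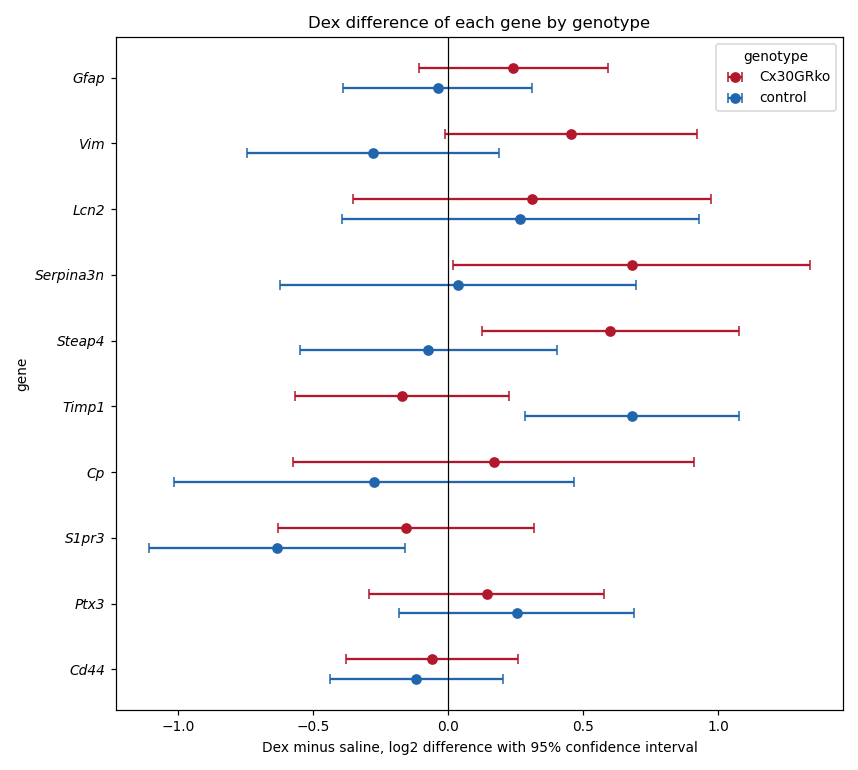
Dex minus saline difference of each gene on the log2 scale (horizontal axis) with its 95% confidence interval, for Cx30GRko mice (red, upper) and control mice (blue, lower), from the fit on all 20 arrays. The intervals of *Steap4* and *Serpina3n* in Cx30GRko mice and of *Timp1* and *S1pr3* in control mice leave out 0 before adjustment over all genes.

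As a list, the members did not share a direction after Dex in control mice, and most lay above 0 in Cx30GRko mice. The median Dex difference was 0.205 in Cx30GRko mice, with 7 of 10 members above 0, against a median of 0.0235 and 53.7% above 0 over all genes. In control mice it was -0.0557, with 4 of 10 above 0, against 0.0116 and 52.3% over all genes. The median size without sign was 0.207 for the members against 0.171 for all genes in Cx30GRko mice, and 0.261 against 0.138 in control mice. For Cx30GRko against control the members' medians were -0.0703 under saline and 0.147 under Dex, against 0.00714 and 0.0134 over all genes. In the first and second sets they were -0.103 and 0.0137 under saline and -0.0203 and 0.246 under Dex, so both turned sign. The median interaction was 0.361 with 8 of 10 members above 0, against 0.0209 and 52.8% above 0 over all genes. It was 0.079 in the first set and 0.366 in the second set. The marker lists had medians above 0 in the same comparison, except the ependymal list, at -0.155 with 2 of 8 above 0. The median interaction was 0.96 with 7 of 7 above 0 for Schwann cell and peripheral root markers and 0.805 with 11 of 12 for meningeal fibroblast markers. It was 0.378 with 8 of 12 for endothelial markers and 0.249 with 16 of 17 for astrocyte markers, none of them a member. It was 0.266 with 8 of 14 for neutrophil and blood monocyte markers and 0.231 with 8 of 9 for oligodendrocyte markers. For mural cell, microglia and neuron markers it was 0.16, 0.156 and 0.0688. In the first and second sets it was 1.06 and 0.847 for Schwann cell markers, 1.06 and 0.483 for meningeal markers, 0.175 and 0.548 for endothelial markers and -0.00877 and 0.625 for astrocyte markers. The Dex difference of the astrocyte markers in Cx30GRko mice had a median of 0.363, with 0.0338 in the first set and 0.807 in the second. The part of these shifts in the members' values was not tested.

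Within a genotype, the sign of a member's Dex difference often turned between the array sets. In Cx30GRko mice 7 of 10 members had the same sign in both sets, and in control mice 5 of 10, against 49.2% and 50.2% of all genes. The differences were positive in both sets for 6 members in Cx30GRko mice, *Gfap*, *Vim*, *Serpina3n*, *Steap4*, *Cp* and *Ptx3*, and for *Timp1* alone of the 10 in control mice. They were negative in both sets for *Cd44* in Cx30GRko mice and for *Vim*, *Cp*, *S1pr3* and *Cd44* in control mice. In the mean Dex effect over both genotypes 9 of 10 members had the same sign in both sets, against 51.3% of all genes. Some of the 9 lay near 0 in 1 set or both. The values, first set before second, were 0.0032 and 0.49 for *Ptx3*, 0.0099 and 0.21 for *Vim*, and 0.39 and 0.058 for *Timp1*. They were -0.62 and -0.063 for *S1pr3* and -0.071 and -0.026 for *Cp*. A shared sign thus does not show a shared size. *Lcn2* turned in both genotypes.

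**Figure D3:**
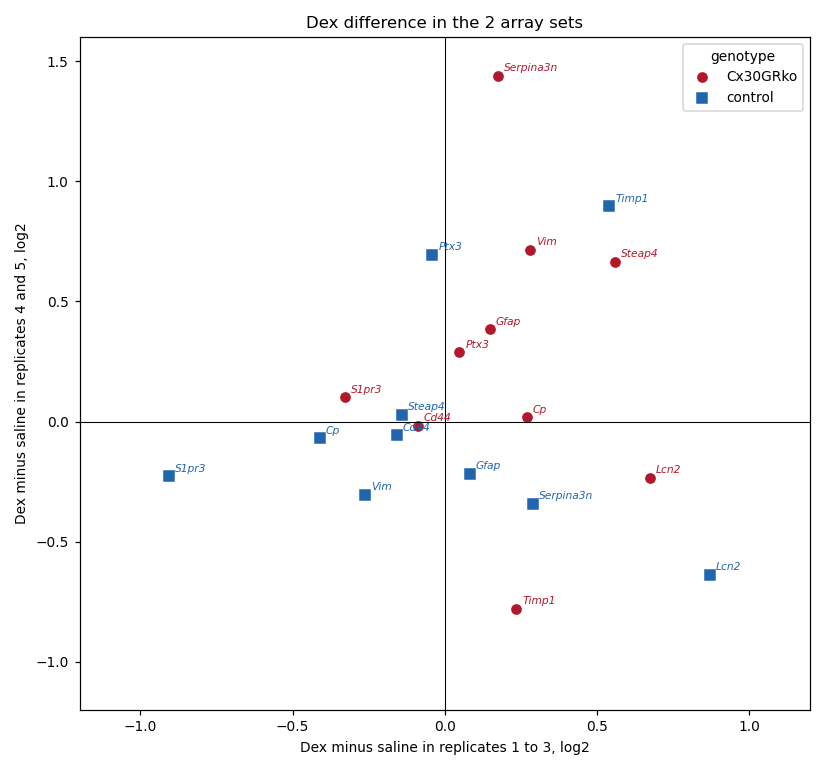
Dex minus saline difference of each gene in the first array set, replicates 1 to 3 (horizontal axis, log2), against that in the second, replicates 4 and 5 (vertical axis, log2), with red circles for Cx30GRko mice and blue squares for control mice. *Lcn2* lies at 0.67 and -0.23 in Cx30GRko mice and at 0.87 and -0.64 in control mice, whereas *Timp1* in control mice lies at 0.54 and 0.90.

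At most 0.108% of all genes were called in any 1 of the 7 comparisons. The wider set of genes tied to reactive astrocytes also held no called gene in any of them. This was so for 20 other pan-reactive genes, all measured, 8 measured of 13 genes of astrocytes after endotoxin and 12 of 12 genes of astrocytes after ischaemia. It was also so for 15 measured of 17 genes of interleukin 6 and STAT3 signalling and for 33 measured of 40 partner genes of the members (relatives, ligands and enzymes, among them *Ptx3* itself). The medians of the mean Dex effect in these 5 lists were 0.0319, 0.0443, 0.015, 0.0957 and 0.0138 in the order given, against 0.0176 over all genes. The endotoxin list holds *Fkbp5*, which is also among the glucocorticoid receptor targets below and was not called in any comparison. The endotoxin genes had a median Dex difference of 0.322 in Cx30GRko mice (5 of 8 above 0) and -0.202 in control mice (1 of 8), and a median interaction of 0.266 (7 of 8). *Il6ra*, the receptor of interleukin 6, had the smallest p of them, with a mean Dex effect of 0.66 ± 0.14 (limma, adjusted p = 0.0712), and 0.76 and 0.51 in the 2 array sets. *Cebpd*, a transcription factor of the acute-phase response, had 0.42 ± 0.13 (limma, adjusted p = 0.451). *Emp1*, a membrane protein listed for ischaemia, had -0.80 ± 0.21 for Dex in control mice (limma, adjusted p = 0.545).

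The cords did respond to Dex at other genes. Of 29 listed glucocorticoid receptor targets, all measured and one of them *Lcn2*, 11 rose in the mean Dex effect and 0 fell, and 29 of 29 lay above 0, with a median of 0.661. The largest was *Cdkn1a*, a cell cycle inhibitor, at 1.80 ± 0.20 (limma, adjusted p = 0.000194). *Sgk1*, a kinase of ion transport, rose by 1.01 ± 0.14 (limma, adjusted p = 0.00188). The mean Dex effects of the 10 members ran between -0.40 for *S1pr3* and 0.36 for *Serpina3n*, with a median of 0.15. The list of targets was drawn up with earlier results of these data known, so its share of rises is not independent evidence.

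*Cp* and *Vim* moved from array to array with markers of other cells. The 10 members were set against 10 marker scores over the 20 arrays, 100 relations in all, with p-values from 100000 permutations within array sets. *Cp* followed the score of 9 mural cell markers, with r = 0.909 and rho = 0.902 (permutation p = 1e-05 for both, the smallest the permutations can give, adjusted p = 0.001). Without the 2 arrays farthest from the median score r was 0.871, within the array sets it was 0.923 and 0.888, and after group means were removed it was 0.935. *Cp* also followed the scores of meningeal fibroblasts (r = 0.738, rho = 0.681, permutation p = 0.00041 and 0.00168, adjusted p = 0.0082 and 0.0336), of Schwann cells and peripheral roots (r = 0.726, rho = 0.71, permutation p = 0.00033 and 0.00093, adjusted p = 0.0082 and 0.0232) and of endothelium (r = 0.687, rho = 0.65, permutation p = 0.00096 and 0.00298, adjusted p = 0.016 and 0.0497). Without the 2 farthest arrays these r were 0.615, 0.648 and 0.522. In the first set they were 0.977, 0.918 and 0.678 and in the second 0.255, 0.341 and 0.712, so that the meningeal and Schwann cell relations were close in the first set alone.

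*Vim* followed the meningeal fibroblast score (r = 0.785, rho = 0.839, permutation p = 8e-05 and 2e-05, adjusted p = 0.004 and 0.001) and the score of Schwann cells and peripheral roots (r = 0.785, rho = 0.815, permutation p = 0.00014 and 8e-05, adjusted p = 0.00467 and 0.00267). For the meningeal score r was 0.757 without the 2 farthest arrays, 0.908 in the first set and 0.57 in the second set, and for the Schwann cell score it was 0.717, 0.873 and 0.648. The meningeal score had group means of 0.16 and -0.21 in Cx30GRko Dex and saline cords and -0.27 and 0.32 in control Dex and saline cords. *Vim* likewise had its higher means in Cx30GRko Dex cords, 8.03 ± 0.47, and control saline cords, 8.13 ± 0.36, and its lower ones in Cx30GRko saline cords, 7.57 ± 0.34, and control Dex cords, 7.85 ± 0.21 (SD, n = 5 each). Over arrays the meningeal score ran between -0.85 and 0.83 in Cx30GRko Dex cords, -0.83 and 0.25 in Cx30GRko saline cords, -0.90 and 0.31 in control Dex cords and -0.13 and 0.60 in control saline cords. All 12 meningeal markers were measured. The part of these cells in the *Vim* and *Cp* values was not tested.

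For *Steap4* and *Lcn2* only Pearson's r passed, with the astrocyte score for *Steap4* (r = 0.473, rho = 0.338, permutation p = 0.00324 and 0.0781, adjusted p = 0.0451 and 0.39) and, inversely, the oligodendrocyte score for *Lcn2* (r = -0.57, rho = -0.538, permutation p = 0.00361 and 0.0255, adjusted p = 0.0451 and 0.223). Without the 2 farthest arrays the *Lcn2* value was -0.603, and it was -0.795 in the first set and -0.623 in the second. *Steap4* had r = 0.254 once the 2 arrays farthest in the astrocyte score were left out, so that relation rested on them. Its r was higher with the mural, Schwann cell, meningeal and endothelial scores, at 0.611, 0.606, 0.582 and 0.528. None of these 4 passed (permutation, adjusted p between 0.0532 and 0.112). Without the 2 arrays farthest in each score they were 0.553, 0.294, 0.616 and 0.316. *Serpina3n* and the astrocyte score had r = 0.802 and rho = 0.54 (permutation p = 0.0078 and 0.0298, adjusted p = 0.0734 and 0.229), with 0.145 in the first set and 0.827 in the second set. Without the 2 farthest arrays it was 0.495, and the part of the astrocyte score in the *Serpina3n* values was not tested. *Timp1* had no relation that passed, and its strongest was with the endothelial score (r = -0.503, rho = -0.526, permutation p = 0.032 and 0.0157, adjusted p = 0.168 for both). After group means were removed this r turned to 0.402, and *Timp1* had 0.625 with the astrocyte score and 0.599 with the mural cell score. *Gfap* did not pass with the astrocyte score (r = 0.451, rho = 0.387, permutation p = 0.213 and 0.15, adjusted p = 0.541 and 0.556), nor did *Lcn2* with the score of neutrophils and blood monocytes, cells that carry lipocalin 2 (r = 0.305, rho = 0.426, permutation p = 0.201 and 0.0701, adjusted p = 0.541 and 0.369).

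**Figure D4:**
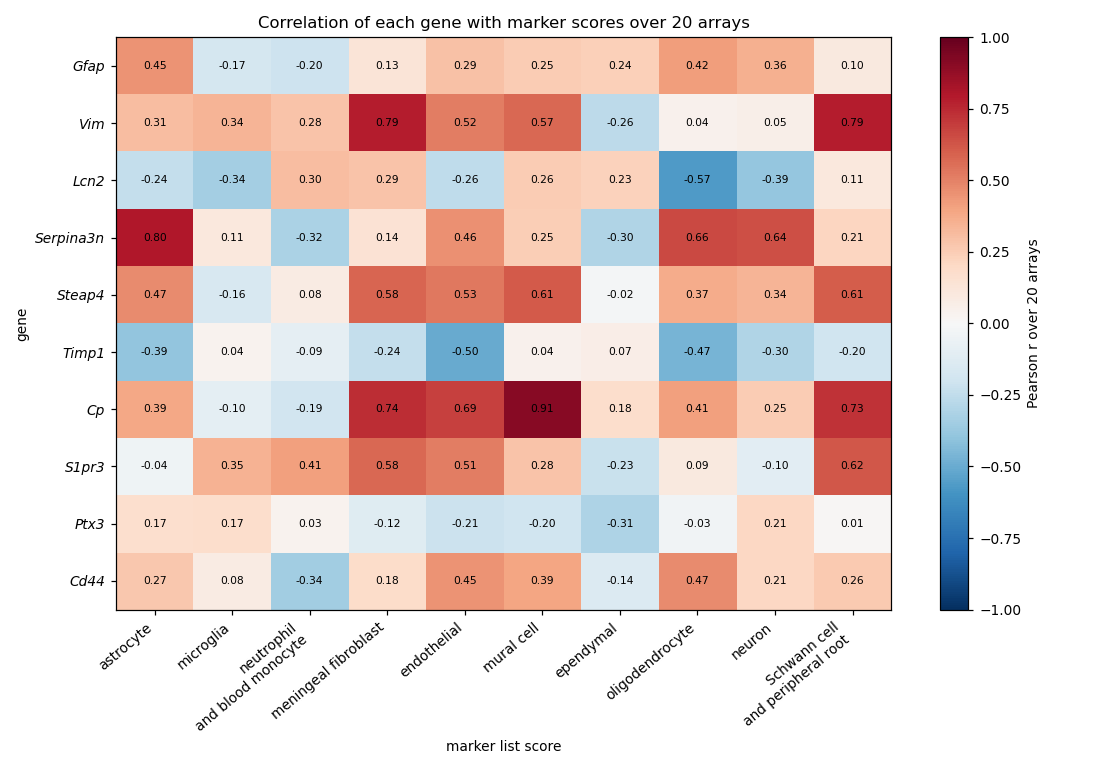
Pearson correlation over 20 arrays between each of the 10 genes (rows) and 10 marker list scores (columns), in colour and as a number. *Cp* with the mural cell score and *Vim* with the meningeal and Schwann cell scores stand highest among the relations that passed adjustment.

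**Figure D5:**
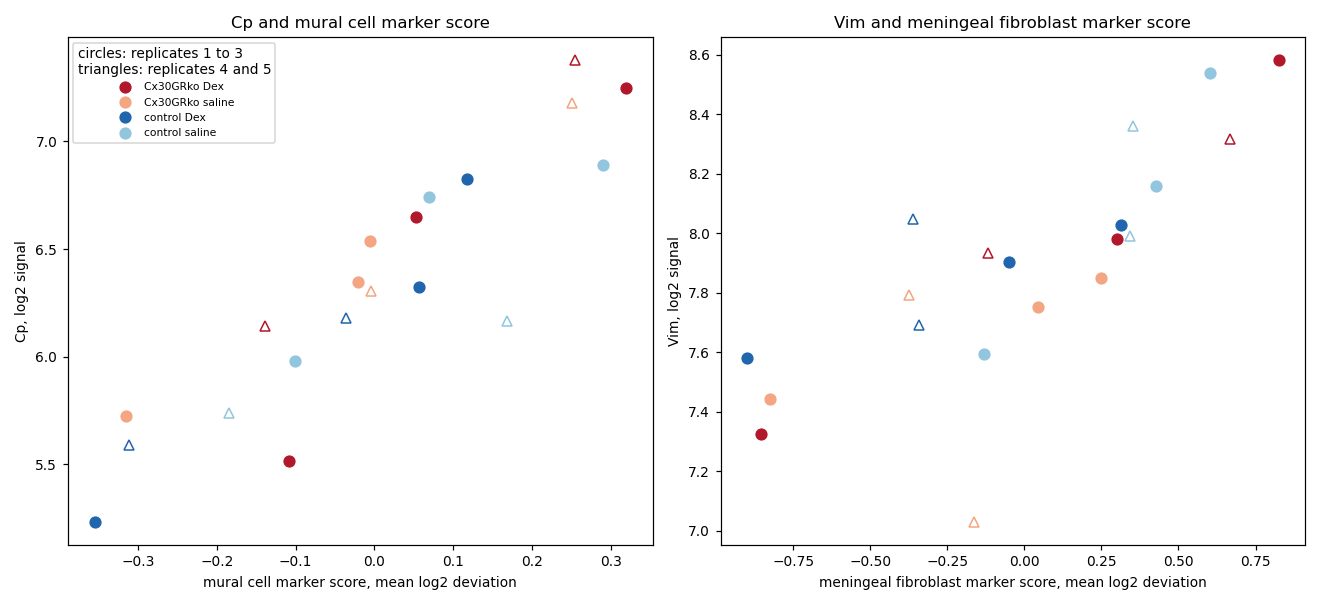
Log2 signal of *Cp* against the mural cell score (left) and of *Vim* against the meningeal fibroblast score (right), 1 symbol per array, coloured by group, with circles for replicates 1 to 3 and triangles for replicates 4 and 5. Both genes climb with the score, with r = 0.909 and r = 0.785, and each group spans a range of scores.

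Among themselves the members correlated between -0.546 and 0.605 over the 20 arrays, given as a description of 45 pairs that share arrays. The closest were *Vim* and *S1pr3* (r = 0.605), *Vim* and *Steap4* (0.596), *Vim* and *Cp* (0.573) and *Steap4* and *Cp* (0.526), and the most opposed were *Ptx3* and *Cd44* (-0.546). *Gfap* was in none of these pairs. The genes whose values lay closest to each member over the 20 arrays were, by Pearson's r, *Dbndd1* for *Timp1* (0.863), *Robo1* for *Gfap* (0.881), *Col12a1* for *Vim* (0.827) and *Angptl4* for *Lcn2* (0.792). They were *Rabgap1* for *Serpina3n* (0.951), *Serping1* for *Cp* (0.86), *Tcp10a* for *Ptx3* (0.856), *Olfr917* for *Steap4* (0.769), *Serpina1d* for *S1pr3* (0.789) and *Erich5* for *Cd44* (0.811). For *Serpina3n* and *Rabgap1* the value was 0.321 in the first set and 0.974 in the second set, whereas for *Vim* and *Col12a1* it was 0.935 and 0.687. *Angptl4*, a secreted regulator of lipoprotein lipase, was itself in the list of receptor targets and had r = 0.884 with *Lcn2* in the first set.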

How the data were processed

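Transcript levels of 20 spinal cord samples were taken from 1 table of log2 values for 41345 probe sets that the authors deposited. Oligo is the tool named, per the submitters' processing notes, and its version, the normalization, the detection calls and the genome build are not stated there or in the labels. All arrays had a mean of 4.64. Of the probe sets, 23521 carried 1 gene symbol, 1814 several and 16010 none. The probe set with the highest mean stood for each of 22180 genes, a choice that mattered for 1082 of them.

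Differences were computed with limma 3.58.1 in R 4.3.3: 4 group means with the array set as a block over all 20 arrays (15 residual and 5.77 prior degrees of freedom), two-sided tests, and Benjamini-Hochberg adjustment over all genes within each of 7 comparisons, with calls at an adjusted p under 0.05. The number of arrays limits the precision. The design text speaks of 5 mice per group, and no pooling was stated. The fit was run on simulated data with planted Dex differences, and the share of them it called is not given here. Members, gene lists and comparisons were chosen with earlier results of these data known. By the rule for names, all 10 members are given, with the genes of smallest p in other lists and the genes most like each member by Pearson's r. Of 255 listed gene entries 236 were measured. Fits without the block, by array set, without single arrays, with array weights, with renormalized values and with other probe set choices were the alternatives tried.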

Additional observations from a re-analysis of the deposited data

Results flagged for a closer look

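*Steap4* in control saline replicate 3, at a log2 signal of 4.50, lay far above the other 4 arrays of its group, of which the next was 3.49 and the lowest 3.20. The gap made up 0.777 of the group's range, over the critical value of 0.71 for 5 arrays. It was 1 of 40 groups of member values checked in this way, and chance marks about 1 in 20.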

How the results depend on the processing

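Of 32 settings, those that altered only the block, the groups fitted, the genes tested or the threshold could not change a difference. No member was called in any of the 32, over 2175 recomputed values, and 35 of 70 differences kept their sign in every setting. *Timp1* for Dex in control mice came closest, at 0.59 with limma's array weights (adjusted p = 0.0619), and lay between 0.59 and 0.75 when single arrays were left out (adjusted p between 0.466 and 1). *Lcn2* for the mean Dex effect was 0.66 with array weights (adjusted p = 0.107). No strong pairing by replicate number was seen. Deviations of same-numbered arrays from their group and set means correlated between -0.109 and 0.109 over 30 pairs, with a median of 0.022. For 48 pairs of different number within a set they correlated between -0.146 and 0.132, with a median of -0.0113. Such deviations cancel within a group and set, so these 48 values are tied to the 30 and give no independent reference. Under a replicate block, 0 members were called in each comparison, and the whole-table count for the mean Dex effect was 15. That count, 24 as reported, was 101 in replicates 1 to 3, 0 in replicates 4 and 5, 177 with array weights, 33 without the array set block and 14 with all probe sets kept. For Dex in Cx30GRko mice it was 2 as reported, 7 in replicates 1 to 3 and 32 with array weights, and for Dex in control mice 3, 38 and 89. Both of these counts were 0 under the replicate block, in replicates 4 and 5, with all probe sets kept and in fits of only the groups compared, and the first was also 0 without Cx30GRko Dex replicates 4 and 5. The genotype count under Dex, 0 as reported, was 3 with array weights, and that over both treatments 2. The cause was not tested. The filter on dim genes left out *Cd44*, *Ptx3*, *S1pr3*, *Steap4* and *Timp1*.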
